A study of Mus musculus with 2 samples.

Results

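The genes described here are the mouse genes whose symbol on the array platform is Usp followed by a number, with optional letters, apart from Usp18. Of 18193 genes with a probeset of their own, 49 met this rule. Each was represented by its brightest probeset, that is, the probeset with the highest mean log2 signal over both arrays, so the rule used the level of a gene and not the difference between the arrays. Usp18 was left out by name, and its signal was known to be higher in the miR-155 array when that choice was made. Of the values below, the counts by fold and the median are therefore also given with Usp18 counted.

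The RNA was that of RAW264.7, a mouse macrophage-like line transformed by Abelson leukaemia virus, infected either with the empty retroviral vector MSCV or with MSCV encoding mir-155. Both arms were grown in DMEM with 10% serum, kept under puromycin (7 µg/ml) and taken to single clones by limiting dilution. Each arm was a pool of 5 such clones, measured on 1 Affymetrix array. The comparison was meant to find mRNAs regulated by miR-155, and there was 1 array per group, so no test or p-value was possible and each difference describes these 2 arrays. In a pool, fewer cells of a type and less RNA per cell cannot be told apart, nor can a small difference in all clones and a large one in a few.

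Ubiquitin-specific proteases form the largest family of deubiquitinases. These cysteine proteases cut ubiquitin from proteins or trim ubiquitin chains, and so oppose the ubiquitin ligases. Members act on histones and DNA repair proteins, on receptors at endosomes, on signalling proteins of the interferon, NF-κB and TGF-β pathways, and on chains held by the proteasome. In macrophages some of them set how long innate immune signals last. The symbol is not a guarantee of activity. Usp39, a splicing factor, lacks the catalytic residues, Usp53 and Usp54 were long classed as inactive, and Usp6nl encodes a GTPase-activating protein for Rab GTPases.

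The manipulated microRNA has a pair of mature arms, printed here because they define the treatment. Sequences are from RefSeq, build GRCm38.p6, plus strand, and the capitals mark the seed, bases 2 to 8. The 5p arm lies at chr16:84714143-84714165 and the 3p arm at chr16:84714182-84714202. Neither arm was measured by the probesets used here.
mmu-miR-155-5p: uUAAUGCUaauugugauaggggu
mmu-miR-155-3p: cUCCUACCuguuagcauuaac

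Most promoters of the Usp genes examined held more CG dinucleotides than the median promoter. Of the 38 genes that passed the signal filter described below, 30 had a promoter in the RefSeq table, 31 promoters in all. Their median number of CG dinucleotides in the 250 bases before the gene start was 25, against 6 over all 32851 promoters. The count was above that overall median in 28 of the 31 promoters, ranged up to 55, and was lowest, at 4, for Usp54. The 32851 promoters were not filtered by signal, and those of the other genes kept were not counted apart. Nothing particular to the family is therefore read from this difference. The promoter of Usp20 is shown because Usp20 was the only member kept whose array signals differed by 1.5-fold. It holds 23 CG dinucleotides, marked in capitals (chr2:30982029-30982278, plus strand).
Usp20: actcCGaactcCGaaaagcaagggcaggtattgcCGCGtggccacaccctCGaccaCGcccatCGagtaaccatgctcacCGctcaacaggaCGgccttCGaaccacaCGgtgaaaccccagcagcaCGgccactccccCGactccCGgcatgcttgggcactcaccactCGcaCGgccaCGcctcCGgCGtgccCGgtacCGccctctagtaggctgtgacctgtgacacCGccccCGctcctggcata

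Since Usp18 is an interferon-stimulated gene, the same windows were searched on both strands for the core of the interferon-stimulated response element, GAAANNGAAA (reverse complement TTTCNNTTTC). It occurred in 2.98% of all promoters and in that of 1 of the 30 members, Usp49, a histone H2B deubiquitinase. The Usp49 match, in capitals, begins 146 bases before the gene start (chr17:47630440-47630689, plus strand). Such a match is a description of letters and not a binding site. The ETS core CCGGAAG (reverse complement CTTCCGG) was found in 6 of the 30 members and in 6.91% of all promoters. The E-box CACGTG was found in 4 members and in 6.02% of all promoters, and CCAAT (reverse complement ATTGG) in 4 members and 33.8% of all promoters. Members were counted by gene, and the background by promoter without a signal filter, so the shares are not like for like. None of these letter patterns was tested for enrichment.
Usp49: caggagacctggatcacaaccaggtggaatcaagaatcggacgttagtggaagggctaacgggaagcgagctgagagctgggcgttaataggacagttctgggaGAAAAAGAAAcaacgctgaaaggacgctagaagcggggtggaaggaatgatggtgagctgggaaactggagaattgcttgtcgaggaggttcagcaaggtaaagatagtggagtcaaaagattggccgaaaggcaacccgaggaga

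The labelled cell type was checked against its markers. All 10 macrophage markers examined passed the signal filter, with signals of 147 to 6058 with empty vector and 220.3 to 5095 with miR-155. They were not equal between the arrays. By the brightest probeset 4 of the 10 were past 1.5-fold, Cd14 (log2 ratio 1.26) and Fcer1g (0.70) higher and Adgre1 (−0.71) and Spi1 (−0.61) lower with miR-155. Csf1r gave −0.25 by that probeset but −0.99 and −0.96 in 2 further ones. Msr1 gave 0.33, but its 3 further probesets ran from −0.52 to −0.07. The part of these markers in the results below was not tested. Of 22 markers of B cells, T cells, neutrophils and mast cells, fibroblasts and erythroid cells, 0 passed the signal filter, and their signals summed to 165 on each array. The median signal over all 45101 probesets was 15.4 with empty vector and 14.1 with miR-155.

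A signal is the deposited probeset intensity on a linear scale. It depends on the probes, so the signals of different genes do not rank their expression, and only the 2 arrays are compared for each gene. Where a pair of signals is given, the empty-vector array comes first. The log2 ratio divides the miR-155 signal by the other, so a negative value means a lower signal with miR-155. Genes in the upper 50% of mean log2 signal were kept, which set a floor of 25.8 on the geometric mean. Beside some ratios stands the local SD, a robust SD computed from the log2 ratios of the 500 kept genes with the closest signal. It describes how far ratios of like-signal genes scatter between these arrays and does not measure variation between clones or cultures. Over the 38 members kept it ranged from 0.15 to 0.62.

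Of the 49 genes, 38 passed this filter and 11 did not. None of the 38 had a reading below the floor on either array. Just inside the filter lay Usp49, with signals of 29.9 and 26.9. Just outside it lay Usp53, with 30.9 and 17.5.

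Apart from Usp18, the expression of the family differed little between the arrays. Of the 38 members kept, 0 were higher by 1.5-fold or more with miR-155, a difference that 5.32% of all 9097 genes kept reached. Usp18 was left out with its higher signal known. With it the count would be 1 of 39, at 2-fold as well. At least 1.5-fold lower was 1 member, Usp20, against 5.99% of all genes kept. Neither direction held a member at 2-fold, which 1.92% of all genes kept passed upwards and 1.43% downwards. The other 37 members lay within 1.5-fold, from −0.55 for Usp37 to 0.26 for Usp3 on the log2 ratio scale. The shares among all genes are themselves small, and nothing particular to the family is read from these counts.

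**Figure D1:**
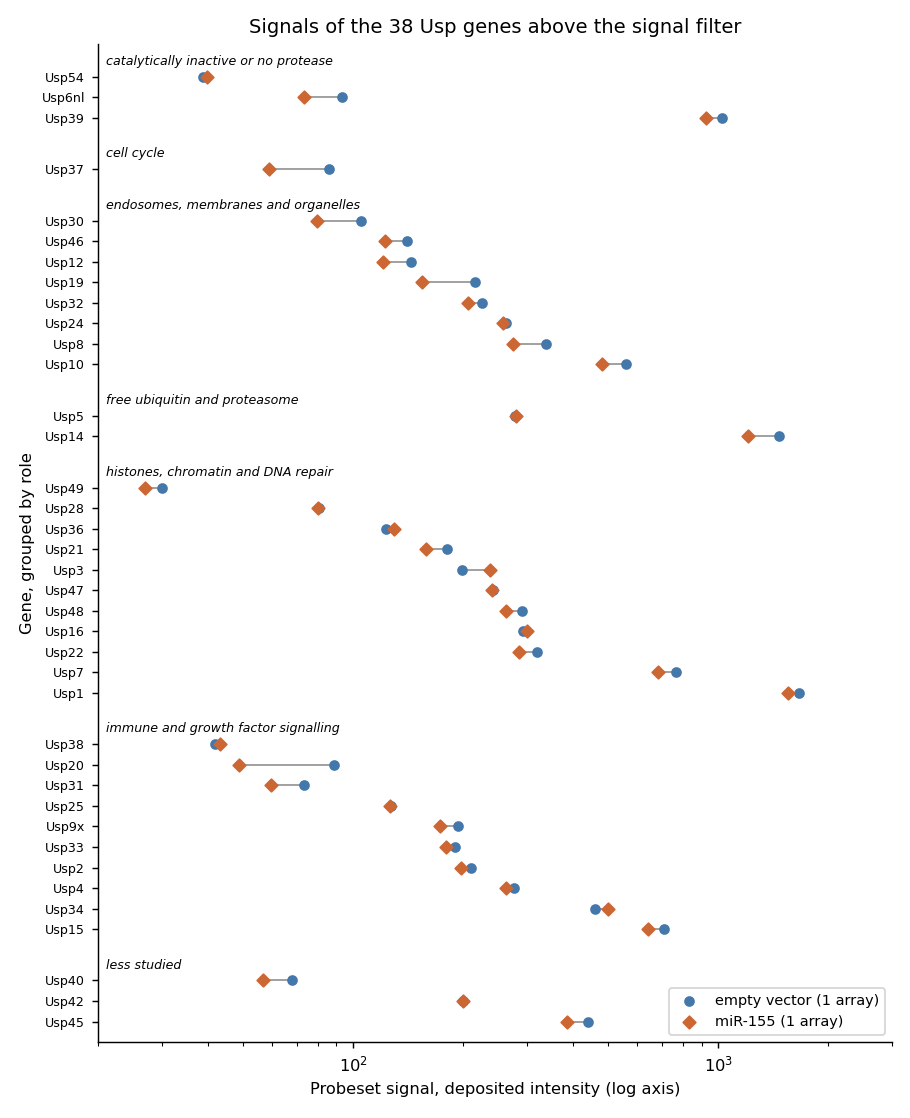
Deposited probeset signals (log axis) of the 38 Usp genes above the signal filter, 1 row per gene, grouped by role, with a circle for the empty-vector array and a diamond for the miR-155 array. The widest gap is that of Usp20 (88.6 and 48.7), and many of the other pairs of symbols touch or overlap.

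The ratios of the family lay slightly to the lower side. A log2 ratio below 0 was found for 30 of the 38 members, against 58.0% of all genes kept. The median log2 ratio was −0.15, with the middle 50% of members between −0.24 and −0.01, and that of all genes kept was −0.05. Each array was also centred on the median log2 signal of all its 45101 probesets. The median signals, 15.4 with empty vector and 14.1 with miR-155, lay below the floor of 25.8. After this centring 22 of 38 members were below 0, against 38.7% of all genes, and the medians were −0.03 and 0.07. With quantile normalisation 26 of 38 were below 0, against 50.5% of all genes, and the medians were −0.10 and −0.0031. The share below 0 thus depended on the scaling. The distance of the family median from that of all genes was −0.097 as deposited and −0.093 after quantile normalisation. Centring shifts every log2 ratio by the same amount and so cannot change this distance. Under the other filters, offsets and probeset rules the distance ran from −0.104 with plain probesets preferred to −0.041 with the mean of all probesets. The distance was not tested.

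Set against genes of like signal, most members lay close to the local median. Within 1 local SD of the local median lay 31 of 38 members, against 66.5% of all genes kept, and within 2 local SDs lay 37, against 90.0%. Below the local median were 26 of 38, against 49.9%. The 19 members with a geometric mean signal at or above the family's median ran from −0.30 to 0.26, with a median of −0.14 and 15 of 19 below 0. The 4424 genes kept from the same signal upwards, with no upper limit, had a median log2 ratio of −0.05. Of them, 61.3% were below 0. Their median signal was 477, against 301 for the 19 members. With 1 array per group these differences from other genes could not be tested.

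**Figure D2:**
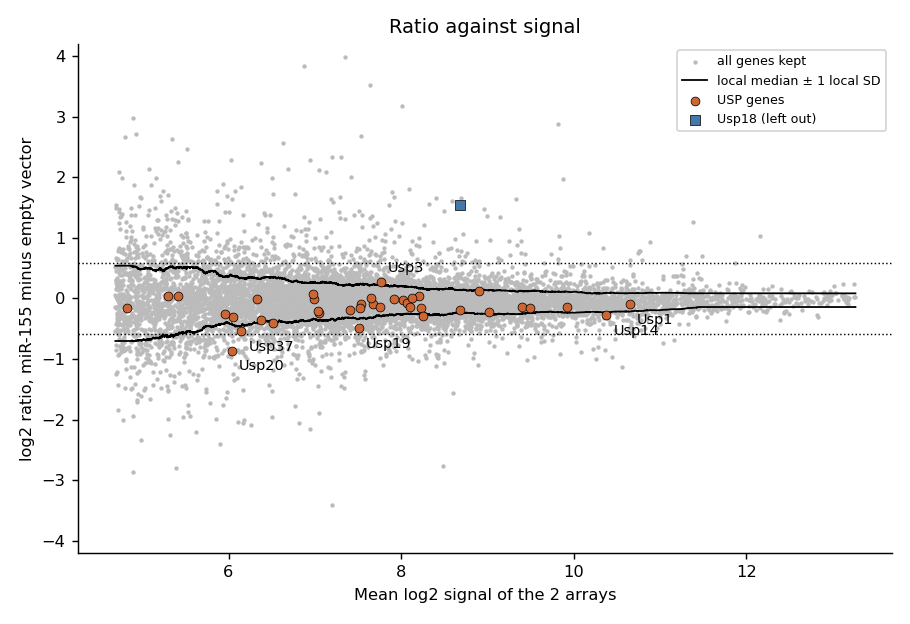
The log2 ratio (miR-155 minus empty vector) of each of 9097 genes kept (grey) against its mean log2 signal, with the 38 Usp genes as circles, Usp18 as a square, black lines at 1 local SD around the local median and dotted lines at 1.5-fold. Most circles lie between the black lines, Usp20 lies below the lower dotted line, and Usp18 stands at 1.54.

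Usp18, the protease that removes the ubiquitin-like modifier ISG15 and dampens interferon receptor signalling, read 241 and 702, a log2 ratio of 1.54 with a local SD of 0.19. The highest ratio among the 38 members was 0.26. With Usp18 counted, 1 of 39 genes was at least 1.5-fold higher and the median was −0.14.

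Usp20, which deubiquitinates the β2-adrenergic receptor and other signalling proteins, was the 1 member past 1.5-fold. Its signal was 88.6 with empty vector and 48.7 with miR-155. This was 1.82-fold lower, a log2 ratio of −0.86 with a local SD of 0.39, and its distance from the local median was −2.13 in units of that SD. The brightest of its 3 further probesets read 22.1 and 3.97, both below the floor, and the others read 3.09 and 1.99, and 1.76 and 2.31. The ratio was −0.74 after centring, −0.82 with quantile normalisation, −0.69 with an offset of 16 and −0.49 with an offset of 50, where it no longer reached 1.5-fold. Usp33, its paralog and like it a binding partner of the VHL ligase, read 191 and 179 (log2 ratio −0.09, local SD 0.28). The difference between the paralogs was not tested.

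The proteases of histones, chromatin and DNA repair showed small differences. All 11 members of this group that passed the filter, out of 14 with a probeset, were within 1.5-fold, and 8 were below 0 (58.0% of all genes kept), with a median log2 ratio of −0.10. After centring 5 of the 11 were below 0 (38.7% of all genes) and the median was 0.02, so the group's side of 0 depended on the scaling. Usp1, which with its activator Wdr48 takes ubiquitin off PCNA and FANCD2, read 1664 and 1555 (1.07-fold lower, log2 ratio −0.10, local SD 0.15). The ratio was −0.14 and −0.06 in its 2 further probesets. Usp7, the deubiquitinase of MDM2 and p53, read 764 and 684 (−0.16), and its 5 further probesets at or above the floor ran from −0.28 to 0.30.

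Usp22, the catalytic subunit of the SAGA deubiquitinating module, read 319 and 285 (−0.16). Usp3 and Usp16, which act on ubiquitinated H2A, read 198 and 238, and 292 and 299. Usp3 had the highest ratio of the family, 0.26 with a local SD of 0.26, but its 2 further probesets at the floor read −0.12 and −0.02. Usp47, of base excision repair, and Usp28, a partner of 53BP1, lay at −0.01 each. Usp21 (−0.19), Usp48 (−0.15), Usp49 (−0.15) and the nucleolar Usp36 (0.07) completed the group. The 2 further probesets of Usp36 at the floor gave −0.31 and −0.0036, and the 2 of Usp48 gave −0.45 and −0.11.

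Among the proteases of immune and growth factor signalling, 8 of 10 had a ratio below 0 as deposited (58.0% of all genes kept), and 4 of 10 after centring (38.7%). Their median was −0.09. The group includes the paralogs Usp20, which was more than 1.5-fold lower, and Usp33, both described above. Usp25, which acts on TRAF adaptors in innate immune signalling, read 127 on both arrays (126.8 and 126.6). Usp15 and Usp4, paralogs that act on TGF-β receptor signalling, read 710 and 643 (−0.14), and 276 and 262 (−0.08). Usp34, which stabilises axin in Wnt signalling, was on the upper side with 460 and 499 (0.12), but its further probeset at the floor read −0.08.

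Usp9x, a large protease that stabilises MCL1, showed how far probesets of the same gene can part. Its brightest probeset read 194 and 174 (−0.16). Of 3 further probesets at the floor, the one with the lowest ratio read 96.2 and 53.7 (−0.84) and the one with the highest 163 and 166 (0.02). Usp38, which acts on TBK1, read 41.9 and 43.2 (0.04), Usp31 gave −0.30, and Usp2 gave −0.09 in its brightest and −0.13 in its further probeset.

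All 8 proteases listed here under endosomes, membranes and organelles had a ratio below 0 as deposited. After centring or quantile normalisation 7 of 8 did, and Usp24 turned to 0.09 and 0.0016. Over all genes kept the shares below 0 were 58.0%, 38.7% and 50.5% in the same order. The group median was −0.24 as deposited and −0.12 after centring. This list was drawn up with earlier results of these data known, so no trait of a cell compartment is read from it. Usp19, anchored in the endoplasmic reticulum, had the lowest ratio of the group, with 215 and 154 (1.40-fold lower, −0.48, local SD 0.28). Its further probeset at the floor read 0.02 and so showed no such difference.

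Usp30, of the mitochondrial outer membrane, which opposes Parkin, read 105 and 79.6 (−0.41), and its further probeset −0.27. Usp8, which acts on receptors at the endosome with the ESCRT machinery, read 338 and 275 (−0.30, local SD 0.20). Usp10, a binding partner of the stress granule protein G3bp1, read 559 and 479 (−0.22). The paralogs Usp12 and Usp46, which both need Wdr48 for activity, gave log2 ratios of −0.25 for Usp12 (144 and 121) and −0.20 for Usp46 (141 and 122). Their further probesets parted, at −0.57 for Usp12 and 0.05 for Usp46. Usp32 gave −0.14 and Usp24 −0.03.

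Of the proteases that work on free ubiquitin chains and at the proteasome, 2 passed the filter. Usp14, which trims chains at the proteasome, read 1463 and 1207 (1.21-fold lower, −0.28, local SD 0.16), and its 3 further probesets ran from −0.43 to 0.12. Usp5, which takes apart unanchored chains, read 277 and 279 (0.01), and the difference between these genes was not tested. Its paralog Usp13 did not pass the filter, with 23.3 and 16.7.

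Usp37, which acts on cyclin A at the entry into S phase, had the second lowest ratio of the family. It read 85.8 and 58.8 (1.46-fold lower, −0.55, local SD 0.40), but its further probeset went the other way, at 0.40. Of the genes without a known protease activity or long classed as inactive, Usp39 read 1022 and 927 (1.10-fold lower, −0.14, local SD 0.17), with −0.30 in its further probeset. Usp54 read 38.8 and 39.7 (0.03). The Rab regulator Usp6nl read 93.5 and 73.3 (−0.35), and its further probesets −0.77 and −0.10. Of less studied members, Usp45 read 440 and 385 (−0.19), Usp40 gave −0.26 in its brightest and −0.27 in a further probeset, and Usp42 read 200.3 and 200.4.

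The 11 members below the filter had signals of 0.58 to 30.9 with empty vector and 0.71 to 17.6 with miR-155. No ratio is printed for them, because the sources used here state no detection limit. They included genes known mainly from the germline, namely Usp17la, Usp26, Usp29, Usp9y and Usp50, whose brightest probesets read at most 9.46 on either array. Usp44 was the dimmest (0.58 and 0.71). Usp11, the third paralog beside Usp4 and Usp15, read 16.9 and 11.0. Usp27x, a paralog of Usp22, read 8.05 and 17.6, and Usp43 read 13.9 and 16.8.

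Further probesets give a second reading of the same RNA, though not a replicate of the cells. Of the 38 members, 22 had further probesets that reached the floor on both arrays, 37 in all. Of these, 25 had the same sign as the brightest probeset (67.6%), against 63.9% of the 6143 further probesets of all genes kept. The 37 had a median log2 ratio of −0.13, and 30 of them were below 0. At least 1.5-fold lower were 2 of the 37 (those of Usp6nl and Usp9x named above), and 0 were at least 1.5-fold higher. Among the 6143 of all genes kept the median was −0.07 and 3688 were below 0. Of the 6143, 400 were at least 1.5-fold lower and 220 at least 1.5-fold higher. The robust SD of the difference from the brightest probeset was 0.19 for the members and 0.28 for all genes kept. Where the sign differed, the ratio of the brightest probeset was not borne out by the other one.

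**Figure D3:**
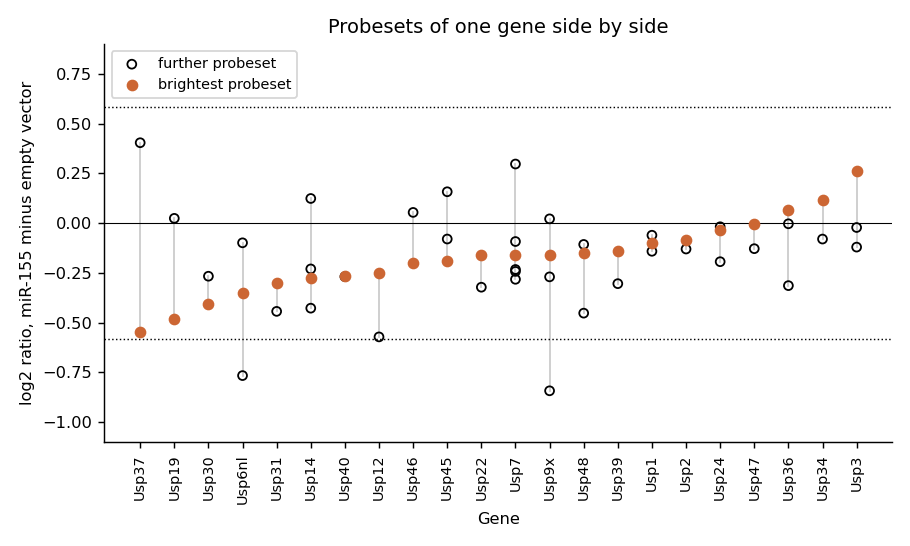
The log2 ratio (miR-155 minus empty vector) of every probeset that reached the floor on both arrays, for the 22 Usp genes with more than 1 such probeset, the brightest filled and the further ones open, with dotted lines at 1.5-fold. In Usp37, Usp9x and Usp6nl the probesets of the gene lie far apart, while those of Usp1, Usp2 and Usp40 nearly coincide.

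The other deubiquitinases, a list that here includes Cyld, had a median close to 0 as deposited. Of 33 such genes with a probeset 28 passed the filter, with a median log2 ratio of 0.0048 and 13 of 28 below 0. Over all genes kept the median was −0.05, and 58.0% were below 0. After centring, the median of the list was 0.12, with 8 of 28 below 0. That of all genes was then 0.07, with 38.7% below 0. At least 1.5-fold higher were 2 and at least 1.5-fold lower 0, beside 5.32% and 5.99% of all genes kept, so the higher count was near the background. Zup1, which cuts K63-linked chains, read 74.8 and 139 (1.86-fold higher, log2 ratio 0.90, local SD 0.36) and had no further probeset at the floor. Tnfaip3, which encodes A20, an NF-κB-induced inhibitor of NF-κB signalling, read 52.4 and 80.1 (1.53-fold higher, 0.61, local SD 0.41), with 0.15 in its further probeset. Cyld, the member of the USP family by sequence whose symbol lacks the prefix, was named after its values were seen. It read 180 and 219 (0.29, local SD 0.26), and 0.47 in its further probeset. Its ratio exceeded that of every Usp gene above the filter apart from Usp18.

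The 10 proteases of SUMO and NEDD8, which are related modifiers, were within 1.5-fold, with a median of −0.09 as deposited and 0.03 after centring. Their lowest ratio was that of Senp5 (218 and 146, −0.58, but −0.02 in its further probeset) and their highest that of Senp7 (0.08). Of 26 partners and substrates of Usp proteins 25 passed the filter, with a median of −0.05, which turned to 0.07 after centring. The partner past 1.5-fold was Atxn7l1, of the SAGA-related Atxn7 family, at 84.7 and 138 (0.70), but its 5 further probesets at the floor ran from −0.62 to 0.12.

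Some partners are named here for their link to a member, after their values were seen. Wdr48, the activator of Usp1, Usp12 and Usp46, read 213 and 210 (−0.02), and its further probesets ran from −0.47 to 0.07. Gmps, a binding partner of Usp7, gave −0.10. Of the binding partners of Usp10, G3bp1 gave −0.09, with −0.57 in its further probeset, and G3bp2 gave −0.25. Stam, which binds Usp8 at the endosome, gave −0.36, the lowest ratio of the list. Atxn7l3 and Eny2, which activate Usp22, gave −0.14 and −0.09. The ligase Mdm2, a substrate of Usp7, read 241 and 239 (−0.02).

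Of 10 listed ubiquitin precursors and E1 enzymes only 4 had a usable probeset. Uba7, the E1 enzyme that activates ISG15, the modifier removed by Usp18, read 56.1 and 100.2 (1.78-fold higher, 0.84, local SD 0.39), and its 2 further probesets 0.78 and 1.02. Uba6 (0.22), Uba3 (0.0082) and Sae1 (−0.18) lay within 1.5-fold by their brightest probeset. The further probesets of Uba6 gave 0.09 and 0.57, and the 3 of Sae1 ran from −0.07 to 1.40.

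**Figure D4:**
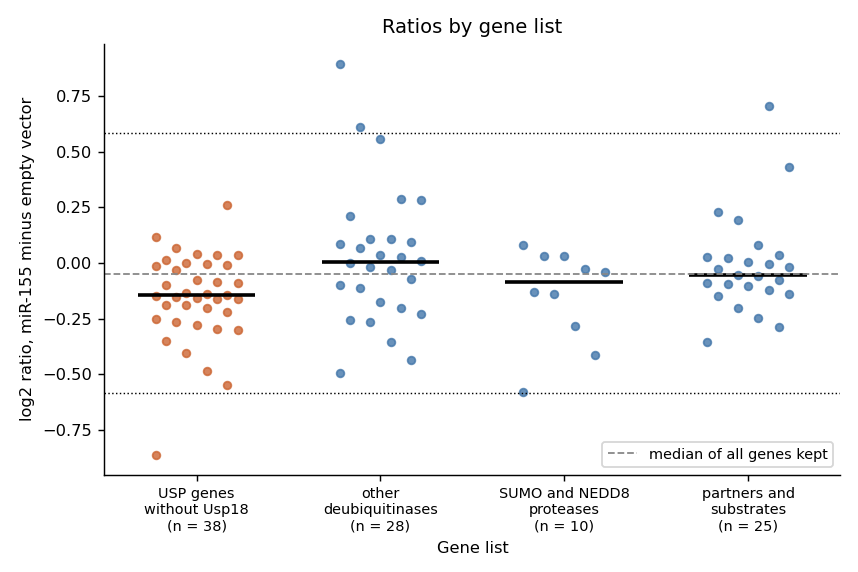
Log2 ratios (miR-155 minus empty vector) of the genes above the signal filter in 4 lists, 1 point per gene, with a black bar at the list median, a dashed line at the median of all genes kept (−0.05) and dotted lines at 1.5-fold. The Usp genes have a median of −0.15 and the other deubiquitinases of 0.0048, and the points of both lists overlap over most of their range.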

How the data were processed

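The deposited file holds probeset intensities on a linear scale for 2 Affymetrix arrays. Biotin labelling followed the manufacturer's procedures, per the labels' protocols. How the authors summarised, corrected and scaled these intensities, and which probesets they called detected, was not given in the sources used here; scaling was therefore varied. The number of arrays limits the precision, and with 1 array per group neither a standard error nor a p-value could be had.

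Genes were named from the 34945 probesets that the platform annotation gives 1 symbol. Not used were 932 with several symbols, 9160 it does not list and 64 controls. The symbols of all 49 members matched the RefSeq table by Entrez identifier. All members kept were named, and those at least 1.5-fold apart or among the 3 brightest were given with full values. The log2 ratio had no offset. Alternatives were other filters, offsets, probeset rules and scalings. The members and gene lists were chosen with earlier results of these data known. Only the local SD and the 1.5-fold cut were tried on simulated ratios, with shifts larger than the ratio of any member kept. The other steps were not simulated. Python 3.11.15, pandas 2.3.3 and numpy 2.4.6 were used.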

Additional observations from a re-analysis of the deposited data

How the results depend on the processing

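No paired analysis was possible because each group has 1 array. The family median stayed below 0 under all 9 alternatives. Of these, centring the arrays moved it most (−0.026), and raised the median of all genes from −0.05 to 0.07. The other deubiquitinases then had a median of 0.12. Counts of members past 1.5-fold depended on dim readings. With no filter they were 4 higher and 4 lower (3 and 1 at 2-fold), where 17.1% and 21.2% of all genes passed, 3111 and 3848. With the mean of all probesets they were 2 higher and 3 lower (2 and 1 at 2-fold), beside 713 (7.84%) and 978 (10.8%) of all genes. The members past the fold all had further probesets below the floor on both arrays, namely Usp25 (2.54 and 10.5), Usp42 (1.74 and 10.3), Usp16 (12.9 and 1.22), Usp8 (22.0 and 11.7) and the 3 of Usp20. Preferring plain probesets gave 2 of 35 lower, Usp20 and Usp53, beside 7.20% of all genes. In the upper 25% of signal 0 were lower, since Usp20 was not among the 20 members there, and with an offset of 50 also 0. All genes then counted 110 higher and 95 lower in the upper 25%, 196 and 188 with an offset of 50, and 345 lower with an offset of 16. Of the other deubiquitinases, 0 of 13 were higher in the upper 25% of signal, beside 2.42% of all genes. With an offset of 16 or of 50, 1 of 28 was higher (3.67% and 2.15% of all genes). Averaging probesets also gave 1 of 28 higher (7.84%), and with no filter 2 of 33 were lower (21.2%). Counting Usp18, an alternative added after the data were seen, gave 1 higher at both folds.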

Other observations

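Probesets shared by a Usp gene and another gene were left out of the values above. That of Usp50 and Polr2l read 1276 with empty vector and 1192 with miR-155. That of Usp49 and Med20 read 33.2 and 44.2. Both probesets shared by Usp17ld and Usp17lc had signals of at most 2.27. Usp46os2, a non-coding transcript named for its position beside Usp46 and left out because its symbol carries a digit after the letters, read 7.55 and 7.82, and 3.87 and 4.66 in its other probeset.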
